A study of Gallus gallus with 16 samples.

Results

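Heat shock proteins and their partners were followed across 4 chicken ovarian cancer cell lines at 4 doses of metformin. The genes were taken by symbol: the HSPA and HSPB families, HSPH1, HSP90, the DNAJ family, the chaperonins HSPD1 and HSPE1, the CCT subunits, the BAG family and the HSF genes. This gave 73 of the 23910 genes in the count table, namely 9 of the HSP70 and HSP110 type, 3 of the HSP90 type, 7 small heat shock proteins, 36 J proteins, 5 BAG genes, 2 genes of the mitochondrial chaperonin, 6 CCT subunits and 5 genes with an HSF symbol. The symbol rule also took HSF2BP, which encodes a protein that binds HSF2 in mammals and is not itself a heat shock factor. Of the 73, 71 had enough counts to be tested at 0.5 mM, at 2 mM and over the dose series, and 70 at 1 mM; HSPB3 and DNAJC5B, with at most 4 and 1 counts in any library, were tested in none of these fits.

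The COVCAR lines C5, C7, C9 and C11 are primary cultures, grown from the cells pelleted from the ascites, the fluid that fills the abdomen, of 4 hens. The authors describe them as ovarian cancer cells, and their methods name no step that selects tumour cells. Cells at passage 3 (C11: passage 2) were held for 24 h in serum-free medium with insulin and epidermal growth factor on ultra-low attachment plastic, where they form spheres, with metformin at 0.5, 1 and 2 mM or without it (0 mM). The 0 mM wells are the control group, and they share the detachment, the plates and the medium with the treated wells. A single RNA library was made for each line and dose, 16 in all, so the 4 libraries of a dose are 4 hens and a line has no repeat at any dose. Levels are given as CPM, the usual scaling of counts to the depth of the library, after TMM correction for its composition.

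Chaperones bind unfolded or newly made proteins and let them fold. HSP70 does so in cycles of ATP hydrolysis that J proteins start and that BAG proteins help to end, HSP90 takes over late folding steps of kinases and receptors, small heat shock proteins hold unfolded chains without ATP, and chaperonins (HSPD1 with HSPE1 in mitochondria, CCT in the cytosol) enclose them. Heat shock factors switch on the inducible members when unfolded protein accumulates. Birds carry HSF3 in addition to HSF1, and in chicken cells HSF3 is known to take part in the heat response. The gene that the table names HSPA2 carries the alias HSP70 in the RefSeq annotation of chicken, and HSPB9 carries the alias HSP25.

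The libraries held between 34724071 and 42531887 counts. In 7 of them longer transcripts had relatively more counts and in 9 relatively fewer: the slope of log2 CPM on log2 exonic length, centred per gene and called the length slope here, ran from -0.291 in C7 at 0 mM to 0.262 in C9 at 0 mM. It was positive in all C9 libraries, in C7 and C11 at 0.5 mM and in C5 at 2 mM, so it changes sign between doses within C5, C7 and C11. Of the epithelial markers in the table, KRT7 lay at 205 to 860 CPM, KRT18 at 0.24 to 28.4 CPM and CDH1 at 0.461 to 7.15 CPM. EPCAM, CLDN3 and ESRP1 did not pass 0.645, 0.232 and 0.162 CPM in any library. The summed level of 7 fibroblast markers was 19200 to 67100 CPM in controls and 8430 to 30500 CPM at 2 mM. Most of the sum was COL1A1, COL1A2 and COL3A1, with control means of 15300, 12200 and 6680 CPM, each lower at 2 mM in all 4 lines. POSTN was lower in all 4 lines too, but DCN was higher in 3, LUM in 2 and PDGFRA in 1. The part of these markers in the results was not tested, and in such bulk samples fewer cells of a type and less RNA per cell cannot be told apart.

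The library C7 at 1 mM stood apart in these genes. It carried 25000 CPM in the 73 genes together, against 9060 to 12300 CPM in the other lines at that dose. Among 69 members with a mean of at least 1 CPM, 13 had their highest level of all 16 libraries there, among them HSPA2, HSPA8, HSPH1, HSP90AA1, HSPB8, HSPB9, DNAJA4, DNAJB1, DNAJB5 and BAG3. For 14 others it was the C7 control and for 10 it was C5 at 1 mM. Such maxima were not counted over all genes, so these counts do not show a trait of the members. C7 at 1 mM also had the lowest fibroblast marker sum, 7200 CPM, and the highest sum of the 10 muscle markers, 3770 CPM, which in the others ran from 272 to 2450 CPM. Most of that muscle sum was ACTA2 and TAGLN, at 1980 and 1590 CPM. SMTN, DES and CNN1 stood at 97.3, 58.2 and 43.3 CPM there, but MYH11, MYOD1, MYOG, ACTN2 and TNNT2 did not pass 0.245 CPM. The authors' own 1 mM table does not hold this library. The slopes of HSPA2, HSPB9, BAG3 and DNAJB1, the log2 fold change of HSPA2 at 1 mM and the counts called in the slope are given with and without it. The calls at 1 mM with block and length slope or with DESeq2, the slopes of other genes and the likeness to HSPA2 are not. The library was left out after the high values of HSPA2, HSPB9, BAG3 and DNAJB1 in it had been seen. A smaller adjusted p of these genes without it is therefore no support.

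At the level of the whole group, chaperone transcripts took a larger share of the counts at 2 mM. The 73 genes together summed to 8810 to 10700 CPM in the controls, 8470 to 10800 CPM at 0.5 mM and 11800 to 14200 CPM at 2 mM, so the control and 2 mM ranges did not overlap. The HSP70 and HSP110 genes carried most of this: 3160 to 4470 CPM in controls and 5180 to 6710 CPM at 2 mM. A few genes weigh heavily in the sum. From control to 2 mM the mean went from 2000 to 3340 CPM for HSPA8, 504 to 1250 for HSPA2, 583 to 1050 for HSP90AA1 and 33.4 to 418 for HSPB9. It fell from 730 to 613 CPM for HSPA5 and from 360 to 252 for HSP90B1. The median log2 change of the 71 members tested was only 0.04 to 0.13 in the lines. The J proteins (1940 to 2100 CPM in controls, 2060 to 2290 CPM at 2 mM) and the CCT subunits (1450 to 1980 and 1490 to 1930 CPM) stayed in overlapping ranges. Per kb of exon and averaged over the 16 libraries, the most abundant members were HSPA8 at 758, HSPA2 at 575, HSPB9 at 533, HSPA5 at 254 and HSP90AA1 at 184 CPM per kb, and the first of these held rank 116 among all 23910 genes.

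By edgeR, with dose as the only term and all 4 lines in the fit, no member passed the test against control at any dose or in the dose series. A gene was called at an unadjusted p under 0.01 and a Benjamini-Hochberg adjusted p under 0.05. With edgeR's quasi-likelihood test, 0 members were called at 0.5, 1 and 2 mM, as were 0% of all genes at each dose, and 0 members against 0.432% of all genes for the slope per mM. At an unadjusted p under 0.05 there were 1, 6 and 12 members at 0.5, 1 and 2 mM and 11 in the slope (15.5%), against 1.1%, 4.77% and 10.6% of all genes at these doses and 14.8% in the slope. DESeq2, also without the line, called 0, 1 and 5 members at the 3 doses and 5 in the slope, against 0%, 0.18%, 1.92% and 3.67% of all genes. On counts simulated without differences between lines, DESeq2 called many unchanged genes. Its adjusted p values may be too small here too, but the simulated libraries were not paired by line, so this cannot be told. Its calls are given as an alternative only. The lines come from different hens and libraries of a line deviated together, so fits with the line as a block are given beside the results wherever they change the call.

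With the line as a block, 6 members were called in the slope. HSPA8, HSPD1, HSPB7 and DNAJC1 rose and HSPB11 and HSF4 fell, 4 and 2 of 71, against 2.6% of all genes rising and 2.36% falling. With the length slope as a further term, 9 rose and 4 fell, against 8.53% and 7.61% of all genes. The members added by that term were HSPB9, DNAJB12, DNAJC10, BAG2 and BAG4, which rose, and HSP90AB1 and DNAJB13, which fell. At 2 mM alone, the block left 0 members and 0% of all genes called. On simulated counts that fit recovered no changed gene, so the 0 says little. Those counts were drawn without differences between lines, so they do not show how the block does on paired libraries. With block and length slope 7 were called, namely HSPA2, HSPB8, HSPB9, DNAJC1, BAG3 and HSF2BP higher and HSPB11 lower, against 5.43% of all genes. Adding the length slope to the block took the genes called from 0 to 722 of 13289. With the lines, the length slope and the dose fitted on so few libraries, few degrees of freedom are left to estimate the spread. The length slope also comes from the same counts. The calls of this fit at any single dose are therefore given as an alternative only.

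The direction of change was often shared by the lines at 2 mM. Of 71 members, 22 (31%) were higher in all 4 lines and 9 (12.7%) lower, against 17.3% and 18.6% of all genes. The groups did not overlap for 7 higher members (BAG3, HSPA2, HSPA8, HSP90AA1, DNAJC1, HSPB7, HSPB9) and for 3 lower members (DNAJB13, HSF4, HSPB11), which is 9.86% and 4.23% of the members against 3.46% and 3.73% of all genes. The median log2 fold change of the members was 0.06, against 0.01 over all genes tested. It was 0.66 for the 9 HSP70 and HSP110 genes, 0.34 for the small heat shock proteins, 0.29 for the BAG genes, 0.03 for the CCT subunits, -0.04 for the J proteins and -0.49 for the HSP90 genes. The -0.49 is the median of only 3 genes. Of these, HSP90AA1 was higher in all 4 lines, and HSP90AB1 and HSP90B1 were lower in all 4. The 0.66 is not a rise shared by all 9 genes in all lines. In C5, C7, C9 and C11 HSPA12A changed by 2.36, -0.81, -0.03 and 0.19 log2 and HSPA13 by 1.22, 0.28, -0.02 and -0.23. In the same order HSPA5 changed by -0.24, -0.57, 0.33 and -0.37 and HSPA9 by -0.34, -0.4, 0.34 and 0.03. HSPA2, HSPA4, HSPA4L, HSPA8 and HSPH1 were higher in all 4 lines, HSPA4L by 1.58, 0.68, 0.15 and 0.37. The log2 CPM of HSPA12A and HSPA4L correlated with the length slope at 0.93 and 0.89.

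**Figure D1:**
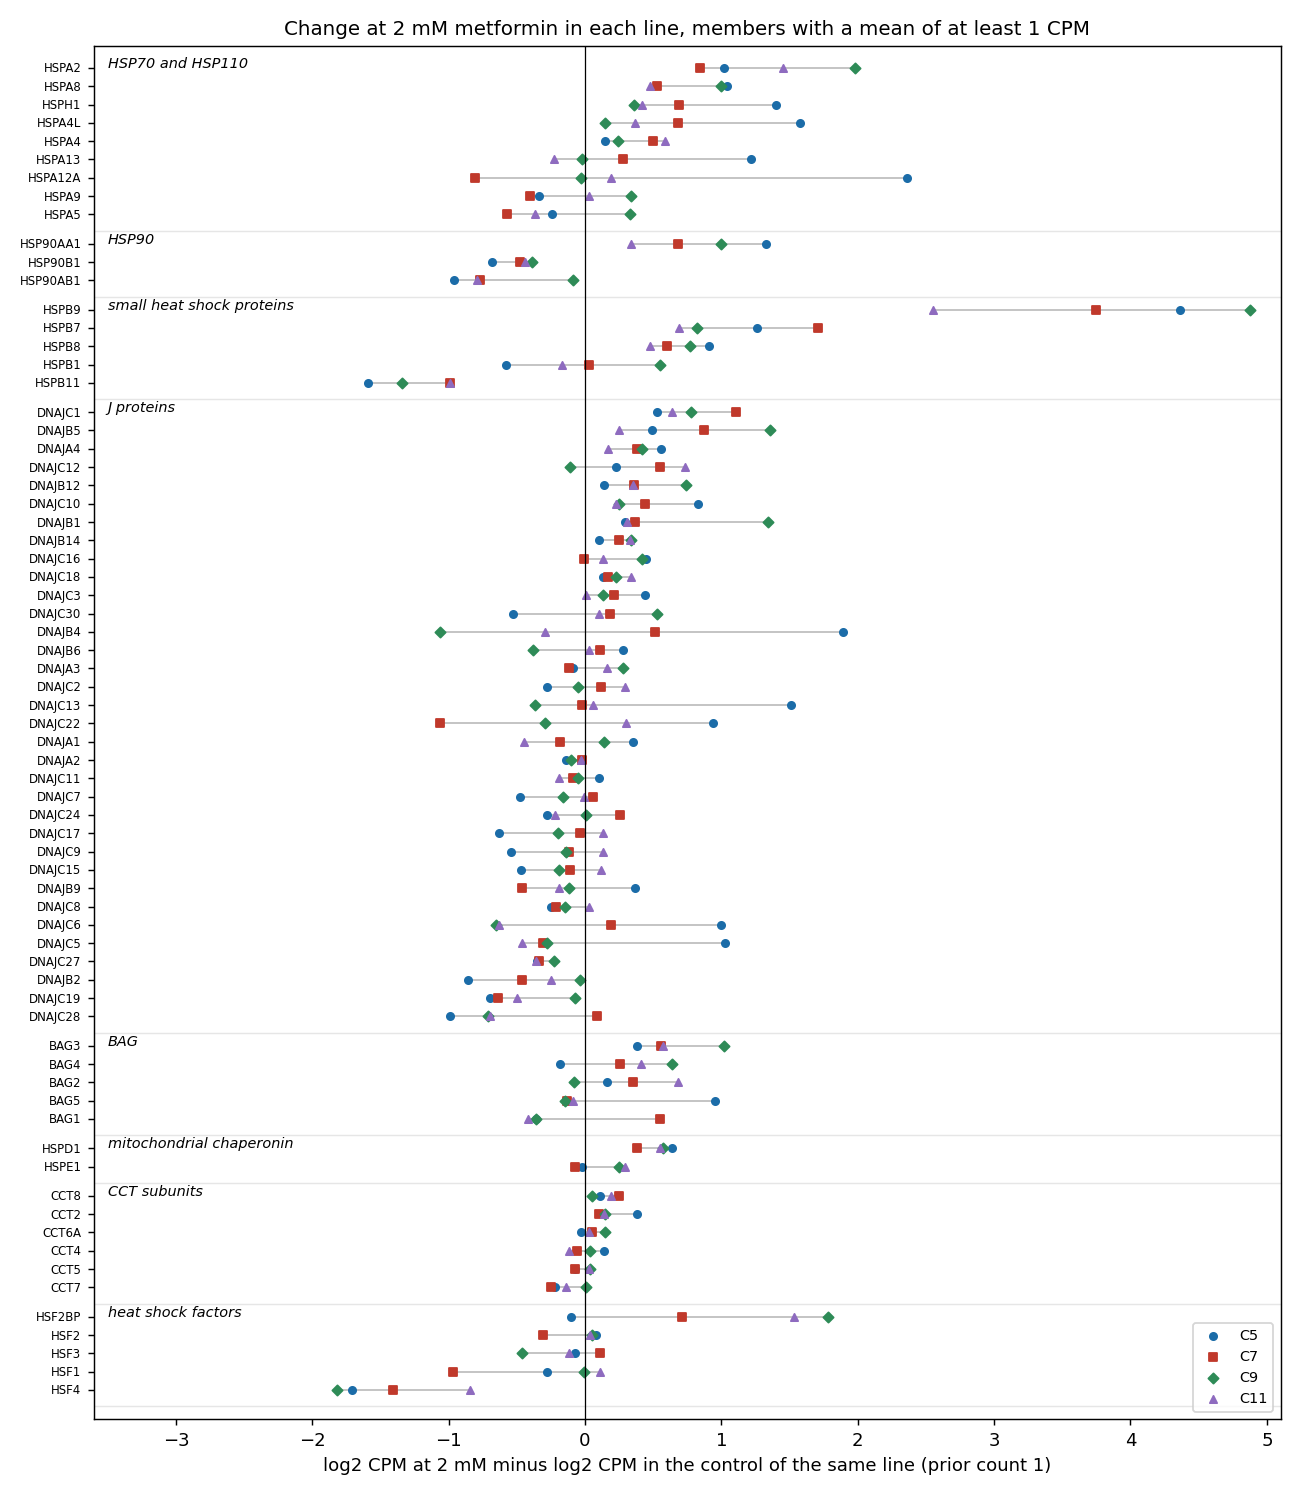
Difference in log2 CPM (x axis, prior count 1) between the 2 mM and the control library of the same line for each member with a mean of at least 1 CPM, grouped by family and ordered by the median of the 4 lines. Each point is 1 line and the grey bar joins the lowest and highest. HSPA2, HSPA8, HSPB9, HSPB7, DNAJC1, BAG3 and HSPD1 lie right of 0 in all 4 lines, and HSPB11, HSF4, HSP90AB1 and HSP90B1 left of it, while the CCT subunits cluster near 0.

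HSPA2, annotated as the chicken HSP70 and the classic heat-inducible chaperone, was about 2 to 4 times higher at 2 mM. It lies on chromosome 5 (GRCg6a, 53057972 to 53060373, minus strand). In controls it stood at 440 (C5), 762 (C7), 435 (C9) and 379 CPM (C11). At 2 mM it stood at 893, 1370, 1720 and 1030 CPM in the same order. Every 2 mM library lay above every control, and the folds within the lines were 2.03, 1.8, 3.95 and 2.72. The log2 fold change was 1.33 ± 0.32 (SE, n = 4 lines, adjusted p = 0.285 by edgeR). With the block it was 1.34 ± 0.23 (adjusted p = 0.0676), with block and length slope 1.49 ± 0.19 (adjusted p = 0.0355) and with DESeq2 1.3 ± 0.36 (adjusted p = 0.0203), so the call at 2 mM depends on the model.

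The intermediate doses of HSPA2 were higher than control in every line. At 0.5 mM it measured 761 (C5), 1600 (C7), 682 (C9) and 582 CPM (C11), and the log2 fold change was 0.84 ± 0.38 (SE, adjusted p = 0.955). At 1 mM it measured 796, 7370, 1350 and 1230 CPM, and the C7 library was 9.67 times its own control. All 4 libraries at 1 mM exceeded all 4 controls, the highest of which was 762 CPM. The log2 fold change at 1 mM was 2.44 ± 0.73 (SE, adjusted p = 1) and 1.15 ± 0.34 (adjusted p = 1) without C7 at 1 mM. The slope was 0.76 ± 0.46 per mM (adjusted p = 0.479), and without that library 0.58 ± 0.18 (adjusted p = 0.125) or, with the block, 0.62 ± 0.16 (adjusted p = 0.0393). With the block on all 16 libraries the slope of HSPA2 was not called.

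HSPB9, the avian small heat shock protein HSP25, had a wide range. It lies on chromosome 27 (GRCg6a, 7654604 to 7655550, plus strand). The controls held 10.8 (C5), 24.9 (C7), 22.9 (C9) and 75.2 CPM (C11), and the 0.5 mM libraries 36.3, 407, 139 and 80.9 CPM. At 1 mM the values were 43.5, 4130, 431 and 535 CPM and at 2 mM 223, 336, 676 and 440 CPM. At 2 mM each line was above all controls, from 5.85 times its own control in C11 to 29.5 times in C9, and in C7 at 1 mM it was 166 times. At 2 mM the log2 fold change was 3.66 ± 0.64 (SE, adjusted p = 0.225 by edgeR), 3.91 ± 0.43 with the block (adjusted p = 0.0562), 3.88 ± 0.50 with block and length slope (adjusted p = 0.0355) and 3.63 ± 0.60 with DESeq2 (adjusted p = 2.13e-06). The slope was 2.19 ± 1.16 per mM (adjusted p = 0.407), and without C7 at 1 mM 1.58 ± 0.50 (adjusted p = 0.124) or, with the block, 1.76 ± 0.39 (adjusted p = 0.0228). With the block on all 16 libraries the slope of HSPB9 was not called.

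BAG3, a nucleotide exchange factor of HSP70 that works with HSPB8 in selective autophagy, was highest in the same library. Its controls lay at 119 (C5), 139 (C7), 108 (C9) and 142 CPM (C11), and its 2 mM libraries at 155, 204, 219 and 210 CPM. The ranges did not overlap at 2 mM. At 0.5 mM it measured 123, 218, 132 and 130 CPM and at 1 mM 134, 741, 194 and 212 CPM, with C7 alone far above the rest. The log2 fold change at 2 mM was 0.65 ± 0.19 (SE, adjusted p = 0.324), and 0.74 ± 0.12 with block and length slope (adjusted p = 0.0419). Its slope of 0.40 ± 0.27 per mM (adjusted p = 0.532) became 0.32 ± 0.08 with the block and without C7 at 1 mM (adjusted p = 0.0393). With the block on all 16 libraries the slope of BAG3 was not called.

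DNAJB1, the J protein (HSP40) that serves inducible HSP70, showed a smaller difference. The controls were 53.3 (C5), 85.1 (C7), 38 (C9) and 61.5 CPM (C11), and the 2 mM libraries 65.4, 110, 96.1 and 76.5 CPM. It was higher in each line, but the groups overlapped. At 1 mM it reached 270 CPM in C7, against 60.0, 73.6 and 85.0 CPM in C5, C9 and C11. The slope was 0.37 ± 0.24 per mM (SE, adjusted p = 0.508), and with the block and without that library 0.31 ± 0.08 (adjusted p = 0.0438). With the block on all 16 libraries the slope of DNAJB1 was not called.

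**Figure D2:**
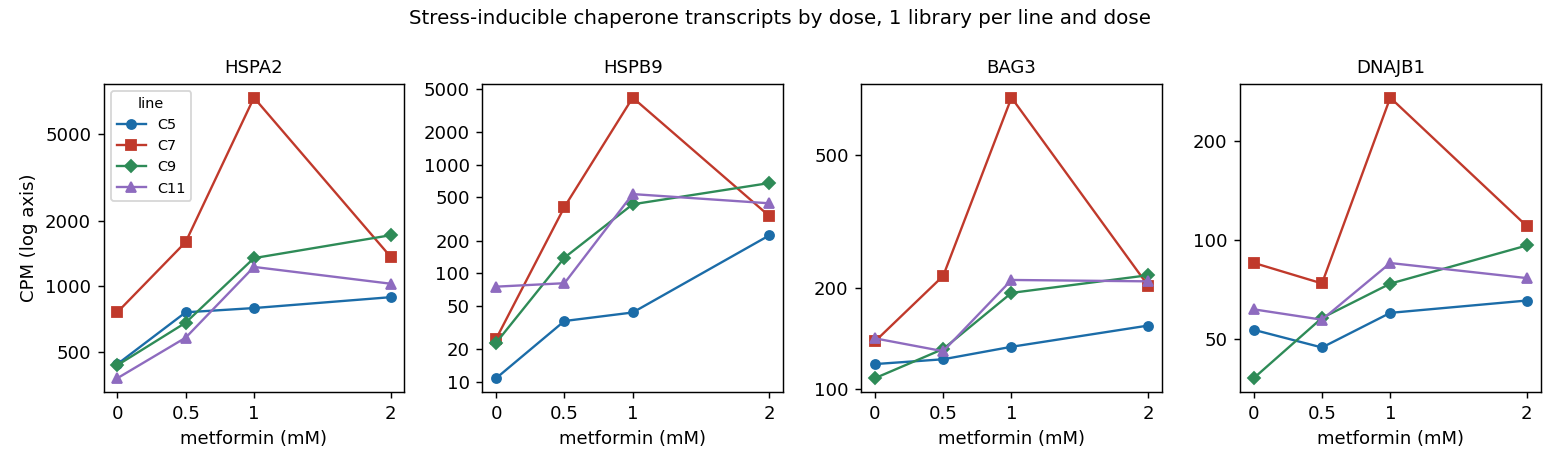
CPM (y axis, log scale) of HSPA2, HSPB9, BAG3 and DNAJB1 against metformin dose (x axis, mM), with 1 point per library and a line joining the libraries of each cell line. C7 at 1 mM is the highest library of all 4 genes (7370 CPM for HSPA2, 4130 CPM for HSPB9), and at 2 mM every line is above its own control.

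HSPB8, DNAJB5 and DNAJA4 stood high in C7 at 1 mM and above control at 2 mM in each line, by factors of 1.39 to 1.88, 1.19 to 2.58 and 1.13 to 1.47. HSPB8, the small heat shock protein that partners BAG3, was 10.1 (C5), 48.6 (C7), 38.3 (C9) and 40.6 CPM (C11) in controls and 19.0, 73.9, 65.3 and 56.6 CPM at 2 mM, with 180 CPM in C7 at 1 mM. Its log2 fold change at 2 mM was 0.66 ± 0.53 (SE, adjusted p = 0.736), and with block and length slope 0.67 ± 0.13 (adjusted p = 0.0481). DNAJB5 and DNAJA4, cytosolic J proteins, ran at 3.22 to 6.76 and 25.9 to 46.5 CPM in controls and 4.55 to 8.70 and 33.9 to 52.4 CPM at 2 mM, and reached 31.6 and 112 CPM in C7 at 1 mM. Neither was called at 2 mM, with adjusted p = 0.52 for DNAJB5 and 0.651 for DNAJA4.

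The likeness of the members to HSPA2 across libraries was measured as the correlation of log2 CPM centred by line, over the 16 libraries, as a description. It was highest for BAG3 (r = 0.95), HSPB9 (0.93), DNAJB14 (0.88), DNAJB1 (0.88), DNAJB5 (0.88) and DNAJA4 (0.84). With C7 at 1 mM left out after the centring, over 15 libraries, the values were 0.94, 0.92, 0.82, 0.80, 0.80 and 0.72 in the same order. The C7 mean used for centring still included that library, so these values do not show the likeness without it. The libraries share their lines, and genes measured in one library share its depth.

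The constitutive HSPA8 (HSC70), which folds proteins in unstressed cells and drives clathrin uncoating, was the most abundant member and also higher at 2 mM. It lies on chromosome 24 (GRCg6a, 3102875 to 3110564, plus strand). The controls held 1480 (C5), 2210 (C7), 1840 (C9) and 2480 CPM (C11), and the 2 mM libraries 3030, 3190, 3680 and 3440 CPM. The ranges were separate, with folds of 2.05, 1.44, 2.0 and 1.39 in these lines. At 0.5 mM it measured 1200, 2240, 2050 and 2290 CPM and at 1 mM 1390, 4190, 2760 and 2920 CPM, so C5 lay below its control until 2 mM. The slope was 0.43 ± 0.14 per mM (SE, n = 16 libraries, adjusted p = 0.154) and with the block 0.45 ± 0.10 (adjusted p = 0.0291). At 2 mM alone the log2 fold change was 0.76 ± 0.25 (adjusted p = 0.368) and with the block 0.78 ± 0.20 (adjusted p = 0.1).

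HSPD1, the mitochondrial chaperonin HSP60, rose with dose in the blocked fit. In controls it measured 235 (C5), 203 (C7), 246 (C9) and 277 CPM (C11); at 0.5 mM 259, 237, 245 and 288 CPM; at 1 mM 277, 296, 330 and 298 CPM; and at 2 mM 366, 264, 365 and 405 CPM. It was higher in every line at 2 mM, by factors of 1.56, 1.3, 1.48 and 1.46, though C7 at 2 mM lay below the C11 control. The slope was 0.30 ± 0.07 per mM (SE, adjusted p = 0.0605), with the block 0.29 ± 0.06 (adjusted p = 0.017), and without the line C7 it was the 1 member that passed without a block (0.758% of all genes). HSPE1, the co-chaperonin that caps HSPD1 and sits head to head with it on chromosome 7, ran from 112 to 165 CPM in controls and from 121 to 157 CPM at 2 mM.

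DNAJC1, a J protein of the endoplasmic reticulum membrane, had the smallest slope p among the J proteins. Its controls were 149 (C5), 88.4 (C7), 123 (C9) and 100 CPM (C11), and its 2 mM libraries 215, 191, 212 and 156 CPM, all above the highest control. At 0.5 mM the values were 181, 102, 131 and 101 CPM and at 1 mM 243, 138, 165 and 165 CPM, each above the control of its own line. The slope was 0.41 ± 0.11 per mM (SE, adjusted p = 0.0949) and with the block 0.42 ± 0.07 (adjusted p = 0.0112). At 1 mM and at 2 mM it was called with block and length slope, at log2 fold changes of 0.64 ± 0.09 (adjusted p = 0.0489) and 0.82 ± 0.13 (adjusted p = 0.0419).

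HSPB7, a small heat shock protein best known from heart and skeletal muscle, was low and rose in the blocked slope. The controls held 7.67 (C5), 7.66 (C7), 7.35 (C9) and 13.0 CPM (C11). At 2 mM the values were 18.4, 25.1, 13.0 and 21.0 CPM, so the C9 library at 2 mM only matched the C11 control to the digits shown. At 1 mM they were 12.8, 21.2, 3.77 and 30.1 CPM, with C9 below its control. The slope was 0.62 ± 0.24 per mM (SE, adjusted p = 0.21) and with the block 0.62 ± 0.15 (adjusted p = 0.0368).

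**Figure D3:**
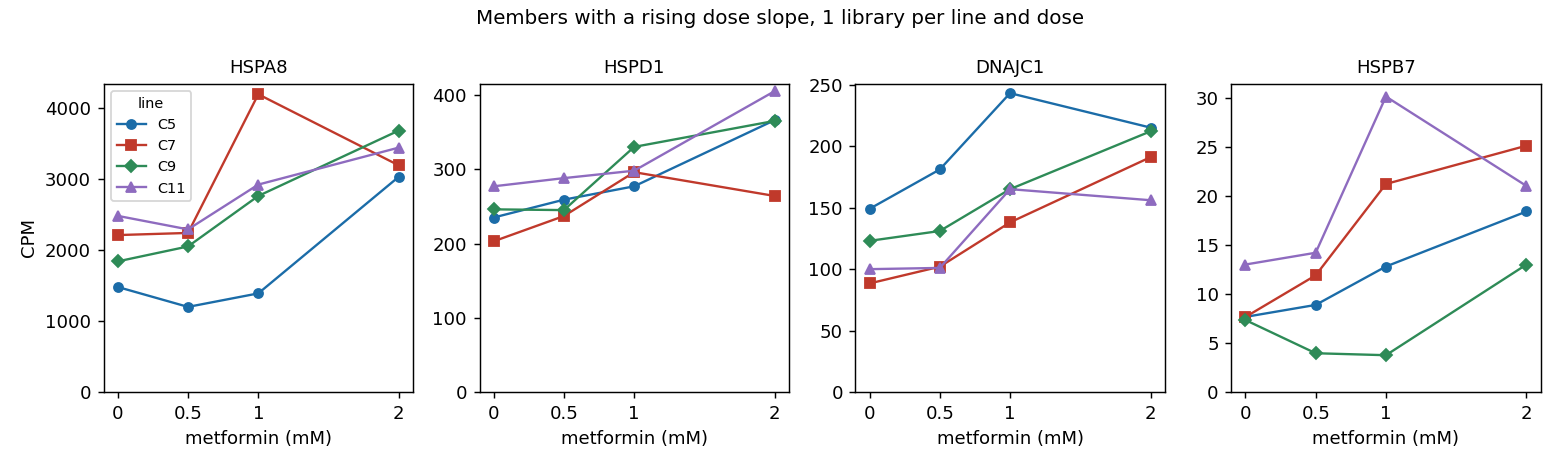
CPM (y axis, from 0) of the 4 members that rose in the slope with the line as a block, HSPA8, HSPD1, DNAJC1 and HSPB7, against metformin dose (x axis, mM), with 1 point per library and a line joining the libraries of each cell line. HSPA8 spans 1480 to 2480 CPM at 0 mM and 3030 to 3680 CPM at 2 mM.

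The HSP90 genes differed in direction at 2 mM, where edgeR called none of them and DESeq2 with the block called HSP90AA1 higher (adjusted p = 0.00573) and HSP90AB1 and HSP90B1 lower (adjusted p = 0.0338 and 0.0222), in a fit that called 9.56% of all genes. HSP90AA1, the stress-inducible cytosolic form, was 443 (C5), 557 (C7), 707 (C9) and 624 CPM (C11) in controls and 1110, 890, 1420 and 793 CPM at 2 mM, with no overlap. At 1 mM it ran from 345 CPM in C5 to 1770 CPM in C7, and its log2 fold change at 2 mM was 0.88 ± 0.26 (SE, adjusted p = 0.328; 0.0921 with the block). Its log2 CPM correlated with the length slope at 0.47 over the 16 libraries. In C5, whose length slope turned positive at 2 mM, it held 347 CPM at 0.5 mM and 345 CPM at 1 mM. HSP90AB1, the constitutive cytosolic form, had 293, 305, 167 and 184 CPM in the controls of C5, C7, C9 and C11 and 150, 180, 157 and 107 CPM at 2 mM. It was lower in each line, with overlapping groups. The slope of HSP90AB1 was -0.31 ± 0.11 per mM (adjusted p = 0.19), and with block and length slope -0.29 ± 0.09 (adjusted p = 0.0466).

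HSP90B1, the HSP90 of the endoplasmic reticulum (GRP94), was also lower in every line at 2 mM. It held 505, 225, 329 and 382 CPM in the controls of C5, C7, C9 and C11 and 315, 162, 251 and 281 CPM at 2 mM, while at 1 mM it held 529, 298, 423 and 297 CPM. The lines kept most of their spread, and the log2 fold change at 2 mM was -0.49 ± 0.30 (SE, adjusted p = 0.616; 0.104 with the block). HSPA5 (BiP), the HSP70 of the same compartment and the usual readout of the unfolded protein response, ran from 484 to 967 CPM in controls and from 578 to 653 CPM at 2 mM. Its log2 fold change was -0.24 ± 0.24 (SE, adjusted p = 0.81). DNAJC3, an endoplasmic reticulum partner of BiP and the J protein with the highest CPM, measured 186 to 243 CPM in controls and 216 to 312 CPM at 2 mM (log2 fold change 0.23 ± 0.19, adjusted p = 0.747).

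HSPB11, known in mammals as the intraflagellar transport protein IFT25, had the smallest adjusted p of all members in the slope. In controls it held 13.0 (C5), 13.3 (C7), 8.86 (C9) and 10.3 CPM (C11), at 0.5 mM 10.5, 7.80, 7.42 and 6.31 CPM, at 1 mM 9.46, 7.14, 6.56 and 8.30 CPM and at 2 mM 4.29, 6.68, 3.48 and 5.17 CPM. Every library at 2 mM was below every control, and within the lines the control was 3.03, 1.99, 2.55 and 1.99 times the 2 mM level. The slope was -0.56 ± 0.12 per mM (SE, adjusted p = 0.0545), with the block -0.56 ± 0.10 (adjusted p = 0.0143) and with DESeq2 -0.57 ± 0.12 (adjusted p = 0.000523). At 2 mM the log2 fold change was -1.20 ± 0.30 (adjusted p = 0.286), with block and length slope -1.15 ± 0.19 (adjusted p = 0.0439) and with DESeq2 -1.22 ± 0.32 (adjusted p = 0.012).

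Among the heat shock factors only HSF4, a factor known for its role in the lens of mammals, was called in any fit of the slope or of 2 mM shown here. It was low, at 3.28 (C5), 4.92 (C7), 5.05 (C9) and 2.58 CPM (C11) in controls and 0.985, 1.84, 1.41 and 1.43 CPM at 2 mM. All 2 mM libraries were below all controls; at 0.5 mM the range was 2.12 to 7.62 CPM and at 1 mM 1.07 to 3.72 CPM. The slope of HSF4 was -0.83 ± 0.22 per mM (SE, adjusted p = 0.0892) and with the block -0.80 ± 0.18 (adjusted p = 0.0291). DESeq2 called it at 2 mM as well (log2 fold change -1.49 ± 0.37, adjusted p = 0.0075).

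The factors that act in the heat response had small log2 fold changes. HSF1, the main stress factor of mammals, was 14.8 to 25.2 CPM in controls and 12.8 to 20.4 CPM at 2 mM. HSF2, which pairs with HSF1, was 62.8 to 85.4 CPM and 64.7 to 78.7 CPM, and HSF3 57.3 to 91.4 CPM and 52.8 to 72.1 CPM. Their log2 fold changes at 2 mM were -0.28 ± 0.26, -0.02 ± 0.17 and -0.13 ± 0.20 (SE), with adjusted p = 0.783, 0.985 and 0.89. HSF2BP was 1.48 to 3.56 CPM in controls and 1.97, 2.44, 9.68 and 10.4 CPM in C5, C7, C9 and C11 at 2 mM, higher in all lines but C5, and it was called at 2 mM with block and length slope (1.34 ± 0.23, adjusted p = 0.0441).

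**Figure D4:**
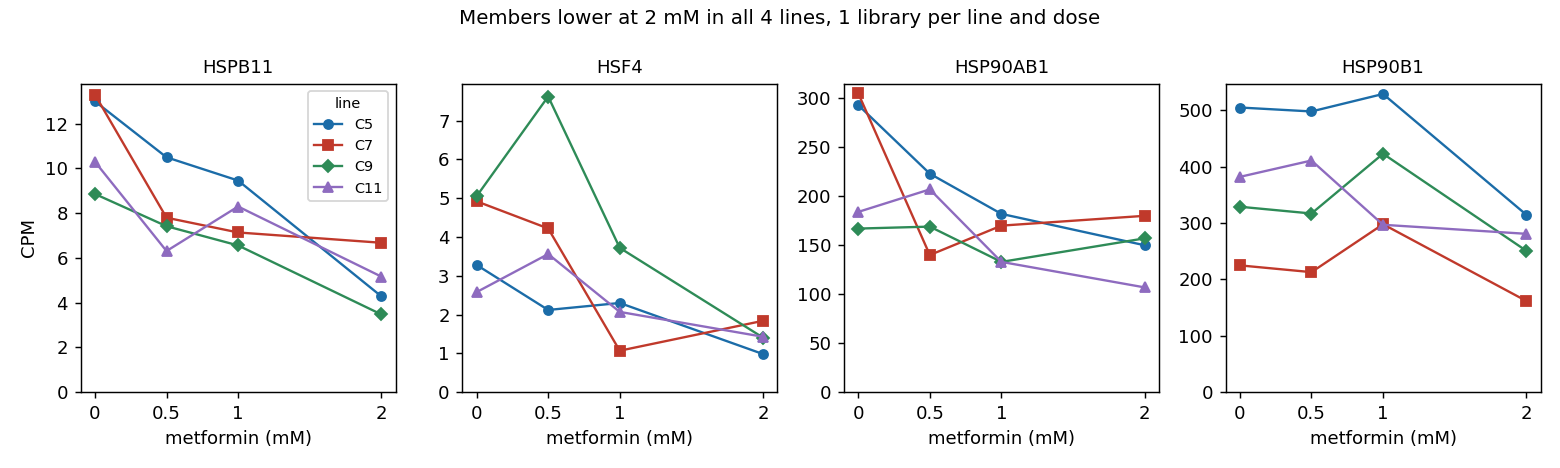
CPM (y axis, from 0) of HSPB11, HSF4, HSP90AB1 and HSP90B1 against metformin dose (x axis, mM), with 1 point per library and a line joining the libraries of each cell line. All 4 genes are lower at 2 mM than at 0 mM in each line, but HSP90AB1 and HSP90B1 overlap between the groups, whereas HSPB11 spans 8.86 to 13.3 CPM at 0 mM and 3.48 to 6.68 CPM at 2 mM.

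The cytosolic chaperonin CCT, which folds actin and tubulin, showed small differences. The 6 subunits taken by the symbol rule had log2 fold changes at 2 mM between -0.15 (CCT7) and 0.21 (CCT2). Their adjusted p ran from 0.721 for CCT2 to 0.998 for CCT4. CCT5, the most abundant of these 6 by CPM, was 299 to 381 CPM in controls and 297 to 363 CPM at 2 mM. The subunit TCP1, which the symbol rule does not take, was 284 to 333 CPM in controls and 304 to 352 CPM at 2 mM. The counting gives a read that covers several genes to each of them, and 555 of the 1957 exonic bases of CCT4 are shared with FAM161A on the same strand. Such reads cannot be assigned to either.

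Among the other J proteins the changes went both ways. DNAJB12, which resides in the endoplasmic reticulum membrane, was 142, 140, 102 and 174 CPM in the controls of C5, C7, C9 and C11 and 156, 180, 171 and 221 CPM at 2 mM. Its slope was 0.25 ± 0.10 per mM (SE, adjusted p = 0.225; 0.0805 with the block and 0.00822 with block and length slope). DNAJB13, a component of cilia and sperm tails in mammals, was 1.53, 0.814, 0.534 and 0.748 CPM in controls and 0.213, 0.301, 0.128 and 0.400 CPM at 2 mM, with no overlap but as few as 5 counts in a library. Its log2 fold change at 2 mM was -1.78 ± 0.54 (SE, adjusted p = 0.329). Of the 35 J proteins tested at 2 mM, 17 had a positive and 18 a negative log2 fold change.

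Several members split by the sign of the length slope of the libraries. The share of all genes that split in this way was not counted. DNAJC13, an endosomal J protein encoded by a long transcript, was 82.7 to 121 CPM in the 7 libraries with a positive slope and 32.4 to 41.1 CPM in the 9 with a negative one. DNAJB4 was 34.4 to 71.5 CPM against 4.40 to 22.6 CPM, and HSPA4L, an HSP110 relative, 135 to 185 CPM against 36.8 to 116 CPM. HSPA12A, BAG5 and DNAJC5 also split without overlap in this direction, and DNAJB2 in the other, at 101 to 146 against 161 to 274 CPM. Across the 16 libraries the correlation of log2 CPM with the length slope was 0.98 for DNAJC13, 0.94 for DNAJB4, 0.89 for HSPA4L and -0.92 for DNAJB2, while for HSPA2, HSPB9 and BAG3 it was -0.11, 0.10 and -0.17. The exonic lengths of these members differed: DNAJC13 has 6751 bases, DNAJB4 1631 and DNAJC5 1582. DNAJC7, with 6095 bases, had a correlation of -0.04. These lengths cover the annotated exons of a gene, and the part of transcript length in the split was not tested. In C5 the length slope turned from negative to positive at 2 mM, and there DNAJC13 went from 40.3 to 115 CPM, HSPA4L from 61.9 to 185 CPM and HSPH1 from 16 to 42.5 CPM.

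**Figure D5:**
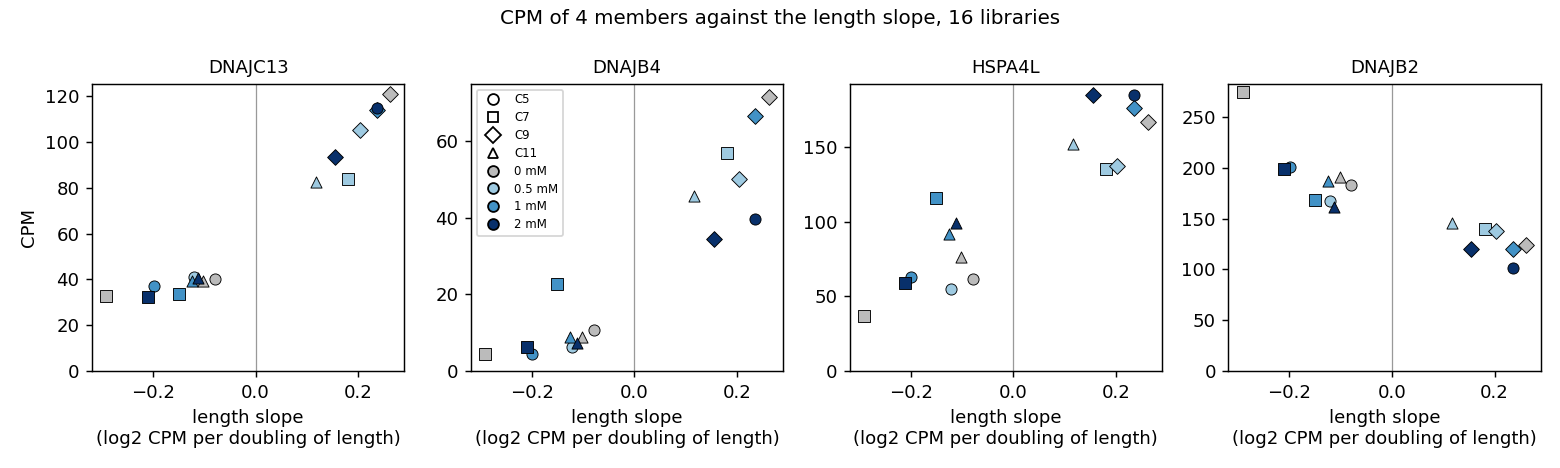
CPM (y axis, from 0) of DNAJC13, DNAJB4, HSPA4L and DNAJB2 against the length slope of the library (x axis, change in log2 CPM per doubling of exonic length), with 1 point per library, the shape giving the line and the shade the dose. The 7 libraries right of 0 lie above the other 9 for DNAJC13, DNAJB4 and HSPA4L and below them for DNAJB2, with no overlap.

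HSPH1, the inducible HSP110 that recharges HSP70, stood high in C7 at 1 mM and in libraries with a positive length slope. It held 16, 14.6, 39.4 and 22.7 CPM in the controls of C5, C7, C9 and C11 and 42.5, 23.6, 50.7 and 30.4 CPM at 2 mM, with 61.7 CPM in C7 at 1 mM. It was higher at 2 mM in each line, with overlapping groups. The log2 fold change was 0.69 ± 0.38 (SE, adjusted p = 0.575), and with block and length slope 0.56 ± 0.12 (adjusted p = 0.056). BAG4, another HSP70 co-chaperone, was 26.8 to 44.1 CPM in controls and 35.4 to 52.6 CPM at 2 mM, and its slope of 0.19 ± 0.11 per mM (adjusted p = 0.477) became 0.21 ± 0.05 with block and length slope (adjusted p = 0.0113).

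At 1 mM few members differed from control. The ranges did not overlap for 4 members, HSPA2, DNAJB5, DNAJB14 and HSPD1, all higher (5.71% against 1.76% of all genes), and for 0 lower members (1.34% of all genes). With block and length slope 5 members were called, HSPA2, HSPB9, BAG3, DNAJB1 and DNAJC1, all higher, against 1.76% of all genes. As at 2 mM, that fit left few degrees of freedom, so these calls are an alternative only. Over all 16 libraries in that model 0 members were called at 1 mM (0.177% of all genes). DESeq2 called HSPB9 at 1 mM and HSPA2, HSPB7, HSPB9, HSPB11 and HSF4 at 2 mM, against 1.92% of all genes at 2 mM. Neither DESeq2 nor the fit with block and length slope was run at 1 mM without the C7 library. Whether their calls at 1 mM hold without it was therefore not tested. With dose as the only term, edgeR without that library called 0 members at 1 mM and 0% of all genes. In the slope without C7 at 1 mM, 10 members were called with the block (HSPA2, HSPB9, BAG3 and DNAJB1 in addition to the 6 above), against 6.71% of all genes. With that library kept, the share of all genes was 4.96%. Because it was left out after the values of these 4 genes were seen, their calls are no support.

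The change per dose was not found to differ between the lines. In a model with a slope for each line, 0 of 71 members passed the test of unequal slopes with edgeR, none of them at an unadjusted p under 0.05, and over all 14108 genes 0 were called and 239 lay under that p. With 1 library per line and dose this says only that no difference was detectable. HSPA2 was highest at 2 mM in C5 and C9 and at 1 mM in C7 and C11, as were HSPB9, BAG3 and DNAJB1.

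Partners of the chaperones outside the symbol rule were counted as well. Of 48 listed co-chaperones, folding enzymes and crystallins, 42 were in the table and 41 were tested in the slope, where 0 were called without the block and 2 with it, CRYAA rising and SGTA falling, against 2.6% of all genes rising and 2.36% falling. SGTA, which helps to sort tail-anchored membrane proteins, was 70.6, 72.1, 51.9 and 48.0 CPM in the controls of C5, C7, C9 and C11 and 39.4, 42.4, 30.7 and 37.8 CPM at 2 mM. All 4 lines were lower and the groups did not overlap, with a slope of -0.32 ± 0.09 per mM (SE, adjusted p = 0.111; 0.0383 with the block). CRYAA, a small heat shock protein of the lens, lay under 1 CPM, at 0 to 0.573 CPM in controls and 0.373 to 0.691 CPM at 2 mM (slope with the block 1.04 ± 0.28, adjusted p = 0.0485).

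Partners of HSP90 were measured too. UNC45B, the chaperone of muscle myosin, was at 0 to 0.0485 CPM in controls and 0.160 to 0.794 CPM at 2 mM. At 1 mM it stood at 0.192 (C5), 1.56 (C7), 0.312 (C9) and 0.296 CPM (C11). At 1 and 2 mM it was higher in all 4 lines and did not overlap the controls, with at most 70 counts in a library. The slope of UNC45B, with C7 at 1 mM included, was 1.81 ± 0.73 per mM (SE, adjusted p = 0.248). AHSA1, the activator of the HSP90 ATPase, was 82.1 to 124 CPM in controls and 97.5 to 151 CPM at 2 mM (slope 0.17 ± 0.08, adjusted p = 0.328). TTC4, a partner of HSP90 and HSP70, was 31.1 to 47.7 CPM and 26.5 to 31.8 CPM (slope -0.18 ± 0.09, adjusted p = 0.377). With block and length slope AHSA1 rose and TTC4 fell (adjusted p = 0.0172 and 0.0243).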

How the data were processed

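The authors aligned the reads to the chicken genome GRCg6a with HISAT2 2.1.0 and counted them on exons with featureCounts. They deposited whole counts per gene and library, not normalized, and per the file headers the exonic length stands beside the counts as an other column. A read over several genes was counted for each. The tables of their own DESeq2 comparisons were not used. Libraries were grouped by the dose and line in their labels.

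Counts were normalized by TMM, filtered with filterByExpr and tested, two-sided, with edgeR 4.0.16 in R 4.3.3, each dose on 8 libraries and the slope on 16, without a line term. All genes tested entered the Benjamini-Hochberg adjustment. The SE given for edgeR is the absolute log2 fold change or slope divided by the square root of the F statistic of its test. For DESeq2 it is the standard error of the model. Neither is a standard deviation over lines. CPM and log2 CPM (prior count 1) used TMM over the 16 libraries, and the length slope was taken over the 10632 genes whose counts average 100 or more. Totals of 34724071 or more leave counting error small except for genes under about 1 CPM. Alternatives were DESeq2 1.42.0, RLE size factors, other count filters, a fold limit, a replicate block, the length slope, all 16 libraries together and leaving out lines, the 2 mM libraries or, chosen after seeing the data, C7 at 1 mM. The scripts were tested on simulated data, where DESeq2 called many unchanged genes and edgeR with the block on 8 libraries recovered none of the changed ones. The simulated counts held no differences between lines, and their length slopes were random numbers.

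Lines are hens, so libraries are paired: deviations of libraries of one line at different doses correlated at a median of 0.532 (24 pairs, -0.241 to 0.815), those of different lines at -0.146 (72 pairs). The deviations were taken from the mean of each dose. Where lines differ, this pulls the correlation between different lines below 0, so the -0.146 is not a neutral baseline.

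The members and lists were chosen with earlier results of these data known. Genes named were those called, up to 2 per family and direction with the smallest slope p under 0.05, the highest CPM per family, all heat shock factors and, for co-chaperones, 2 in each direction. HSPA2, HSPA4L, HSPA5, HSPH1, HSP90B1, HSPB8, DNAJA4, DNAJB1, DNAJB4, DNAJB5, DNAJC13, BAG4 and CRYAA, and others given only by levels or counts, were chosen after their values were seen. No sequences are shown.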

Additional observations from a re-analysis of the deposited data

Results flagged for a closer look

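In groups of 4 libraries, 1 library lay far from the other 3 by Dixon's 95% limit in 17 of 120 groups tested over the members named. Chance flags about 1 in 20, but 12 of these members were chosen after their values were seen, so the 17 cannot be set against that rate. Over the members named by rule it was 7 of 72. In 8 of the 17 the library is C7, and in 5 of these C7 at 1 mM stands above the rest, with 7370 CPM for HSPA2, 4130 CPM for HSPB9, 741 CPM for BAG3, 270 CPM for DNAJB1 and 31.6 CPM for DNAJB5. C7 was also far above the other lines for HSPA2 at 0 mM (762 CPM) and, at 0.5 mM, for BAG3 (218 CPM) and HSF2 (84.0 CPM).

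C9, whose libraries all have a positive length slope, stood above the others for DNAJB4 at 0 mM (71.5 CPM) and for DNAJC13 at 0 mM (121 CPM) and 1 mM (114 CPM), and below them for DNAJB12 at 1 mM (136 CPM). C5 was highest at 0.5 mM for DNAJB13 (2.12 CPM) and BAG4 (47.8 CPM), and lowest for HSPH1 at 0.5 mM (8.83 CPM) and DNAJB5 at 2 mM (4.55 CPM). C11 was highest for HSPB7 in the controls (13.0 CPM). The causes were not tested.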

How the results depend on the processing

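Counts of members called are given with the share of all genes called in the same fit. At 1 mM, 0 as reported, 5 were called with the replicate block and the length slope (1.76%), 1 with DESeq2 (0.18%) and 6 with DESeq2 and the block (3.27%). None of these fits was run at 1 mM without the C7 library. At 2 mM, 0 as reported, 7, 5 and 15 were called in these fits (5.43%, 1.92% and 9.56%), and 11 over all 16 libraries with the block and the length slope (10.3%); the block alone left 0 at each dose. In the slope, 0 as reported (0.432%), it was 6 with the block (4.96%), 13 with the block and the length slope (16.1%), 5 with the length slope alone (6.39%), 5 with DESeq2 (3.67%), 9 with DESeq2 and the block (8.52%) and 1 at a mean of at least 1 CPM (0.745%). Without C7 at 1 mM it was 1 (1.44%), with the block 10 (6.71%) and with the length slope too 20 (21.2%). Leaving out each line gave 0 to 1 (at most 0.758%). Co-chaperones called in the slope, 0 as reported, were, in fits with these same shares, 2 with the block, 5 with the block and the length slope, 1 with the length slope, 1 with DESeq2, 4 with DESeq2 and the block, and without C7 at 1 mM 2 with the block and 10 with the length slope too. The median log2 fold change of the members at 2 mM ran from -0.004 to 0.087 when each line was left out, and was 0.068 with the block. The causes were not tested.

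For single genes, 904 of 1063 values kept their direction and side of the threshold. CCT5 at 2 mM was 0.001 with the block, 0.024 with the length slope too, 0.042 with the length slope alone, 0.009 and 0.034 over all 16 libraries without and with these terms. Its slope without the 2 mM libraries was -0.11, with the block -0.1. The slope of HSF2 was -0.011 with DESeq2 and with RLE, -0.006 with DESeq2 and the block, -0.007 without a count filter, -0.002 at a mean of 1 CPM, -0.002 without the 2 mM libraries and with the block, and without C7 at 1 mM -0.01, with the block -0.005 and with the length slope too -0.009. Without the 2 mM libraries, and then with the block, slopes were 0.029 and 0.022 for HSF3, 0.11 and 0.14 for HSP90B1, -0.052 and -0.05 for DNAJC13, and without the block 0.14 for DNAJB13 and 0.12 for DNAJB4. DNAJB4 with the block was 0.26 at 2 mM (DESeq2 0.23) and 0.015 in the slope. Leaving out each line gave ranges of -0.057 to 0.008 for CCT5 at 2 mM, -0.093 to 0.045 for HSF2 at 2 mM and -0.029 to 0.058 for its slope, -0.78 (without C5) to 1.11 (without C9) for DNAJB4 at 2 mM and -0.59 to 0.042 for its slope, and -0.18 (without C5) to 0.71 (without C9) for DNAJC13 at 2 mM and -0.19 to 0.21 for its slope.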
